A study of Mus musculus with 360 samples.

Results

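This account covers 9 genes of the Notch pathway, chosen by name as ligands, receptors, targets and a coactivator, out of the 24015 genes of the count tables. The ligands were Jag1 and Dll1, the receptors Notch1, Notch2 and Notch3, the targets Hes1, Hey1 and Heyl, and the coactivator Maml2. All 9 had rows in the tables, and 8 of them reached 10 CPM (reads of the gene per 1000000 reads) in at least 1 tissue. Dll1 did not.

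The cells were skeletal stem/progenitor cells of wild-type CD-1 mice at postnatal day 3. Each was sorted alone into a well as CD200+ and CD51+ and as negative for CD105, 6C3, Thy1.2, Thy1.1, Tie2, Ter119 and CD45, and its messenger RNA was copied along its full length, with no molecular identifiers. The sources were the posterior frontal (PF) suture, which fuses early in life, the sagittal (SAG) and coronal (COR) sutures, which do not fuse, and the growth plate (GP) of the tibia as a reference. A suture sample held the suture mesenchyme with its osteogenic fronts, dura mater and periosteum, and tissue of many mice was pooled. No animal was named for any cell, so each tissue was 1 sample, and no p-value or standard error could be given. The 2 sorting plates of a tissue gave the only spread within it.

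Of 360 cells, 325 had at least 500 genes and 10000 reads, namely 78 from GP, 87 from PF, 74 from COR and 86 from SAG. SAG plate 2 stood apart from the other 7 plates. There the ribosomal RNA precursor Rn45s took 86.8% of reads, against 20.2% to 31% on the others, and its 56 cells had a median of 875 genes, against 2112 to 3867. Rn45s was left out of all totals, which left 32037308 reads in COR, 30299518 in PF, 28471545 in GP and 17212041 in SAG. The part of plate 2 in the SAG results was not tested, and SAG levels are given by plate or also without it where a comparison turns on them. The title of 1 cell placed it in SAG and its description on a PF plate. It was kept in SAG. Itgav or Cd200, the genes of CD51 and CD200, had a read in 62.1% of PF, 82.4% of COR, 69.2% of GP and 40.7% of SAG cells, and in 19.6% of cells of SAG plate 2. A list of 8 osteoblast genes summed to 119300 CPM in COR, 117800 in PF, 101100 in GP and 33520 in SAG, while 7 blood cell genes summed to at most 29.3 CPM and 6 neural or glial genes to between 31 and 380 CPM.

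In the Notch pathway a ligand on one cell binds a Notch receptor on its neighbour, and the receptor is cut so that its inner part enters the nucleus. There it joins Rbpj and a Mastermind-like protein such as Maml2 and turns on genes of the Hes and Hey families, which encode transcriptional repressors. In skeletal tissue the pathway is known for holding progenitors back from differentiation, and mutations of JAG1 and NOTCH2 cause Alagille syndrome.

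In mm9 coordinates, Jag1 lies at chr2:136907192-136942380 on the minus strand and Dll1 at chr17:15504318-15513836 on the minus strand. Notch1 lies at chr2:26313423-26372183 (minus), Notch2 at chr3:97817461-97954290 (plus) and Notch3 at chr17:32257765-32303825 (minus). Hes1 lies at chr16:30064470-30067882 (plus), Hey1 at chr3:8663362-8667039 (minus), Heyl at chr4:122910799-122927118 (plus) and Maml2 at chr9:13424434-13513832 (plus). The tables hold 1 count per gene and cell, so no value belongs to a single exon or transcript.

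Promoters from RefSeq on build GRCm38.p6 were at hand for 6 of the 9 genes, all but Hes1, Hey1 and Heyl. The 250 bases before the start of Jag1 and Notch3 are shown because 8 of the 10 PF cells with Notch3 reads also had Jag1 reads. Capitals mark CACGNG, a site that Hes and Hey proteins bind, and CACNAG, the N box, on either strand. CACGAG fits both. Jag1 is at chr2:137116521-137116770 and Notch3 at chr17:32166891-32167140, both on the minus strand and written 5′ to 3′.

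Jag1: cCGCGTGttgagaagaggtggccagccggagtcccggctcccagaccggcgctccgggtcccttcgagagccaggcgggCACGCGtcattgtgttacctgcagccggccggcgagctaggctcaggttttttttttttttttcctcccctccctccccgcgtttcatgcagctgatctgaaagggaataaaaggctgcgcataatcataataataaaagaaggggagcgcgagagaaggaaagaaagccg

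Notch3: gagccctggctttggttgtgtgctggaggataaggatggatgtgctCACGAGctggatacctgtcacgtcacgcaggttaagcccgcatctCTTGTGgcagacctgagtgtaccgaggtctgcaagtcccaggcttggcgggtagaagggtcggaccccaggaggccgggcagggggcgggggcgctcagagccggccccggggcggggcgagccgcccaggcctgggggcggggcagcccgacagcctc

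Jag1 held 2 matches to CACGNG, 249 and 171 bases before its start, and none to CACNAG. Notch3 held matches to CACNAG 204 and 159 bases before its start, and the former also fits CACGNG. The Rbpj motif TGGGAA was in neither window. Among 32851 promoter windows of that length, 23.5% held CACGNG, 36.7% held CACNAG and 21.6% held TGGGAA. A match is a description of letters only.

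Jag1 was the only ligand of the set with an appreciable level. It stood at 92.8 CPM in PF (95% interval 89.4 to 96.3), 80.3 in GP (77 to 83.6), 26.1 in COR (24.4 to 28) and 14.9 in SAG (13.2 to 16.9). Intervals are exact Poisson for CPM and exact Clopper-Pearson for shares of cells, and both cover counting error only, since PCR copies were counted and cells of a tissue shared their animals. By plate, Jag1 was at 62.6 and 100 CPM in PF, 167 and 62 in GP, 1.54 and 28.9 in COR and 30.4 and 4.64 in SAG. Both PF plates and both GP plates lay above all COR and SAG plates, whereas COR and SAG plates overlapped. The paper reports the opposite direction among the sutures. From bulk RNA sequencing of such cells at postnatal day 3, it lists Jag1 among genes lowered in PF alone, with RT-PCR beside it. The reason for the difference was not tested. A single cell of GP plate 1 held 423 of its 826 Jag1 reads (51.2%), and without it that plate was at 85.1 CPM. The cells with Jag1 reads numbered 30 of 87 in PF (34.5%, interval 24.6 to 45.4), 25 of 78 in GP (32.1%, 21.9 to 43.6), 22 of 74 in COR (29.7%, 19.7 to 41.5) and 7 of 86 in SAG (8.14%, 3.34 to 16.1). Over both plates PF and COR thus had much the same share of cells with Jag1 reads, although COR plate 1 had 2 of 16 cells (12.5%). Among the cells read, the median level was 121 CPM in PF and 40.7 in COR, and the median count 26 and 16 reads. On plate 2 alone the median level was 67.9 CPM in PF and 43.9 in COR. On SAG plate 1 alone 5 of 30 cells had a Jag1 read. Dll1, the ligand of presomitic mesoderm, had 18 reads in 1 cell of SAG plate 2 and 0 elsewhere. Taken as a limit of 3 cells in a tissue, a count of 0 allows a share with a read of up to 4.05% in COR, 3.85% in GP and 3.45% in PF.

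**Figure D1:**
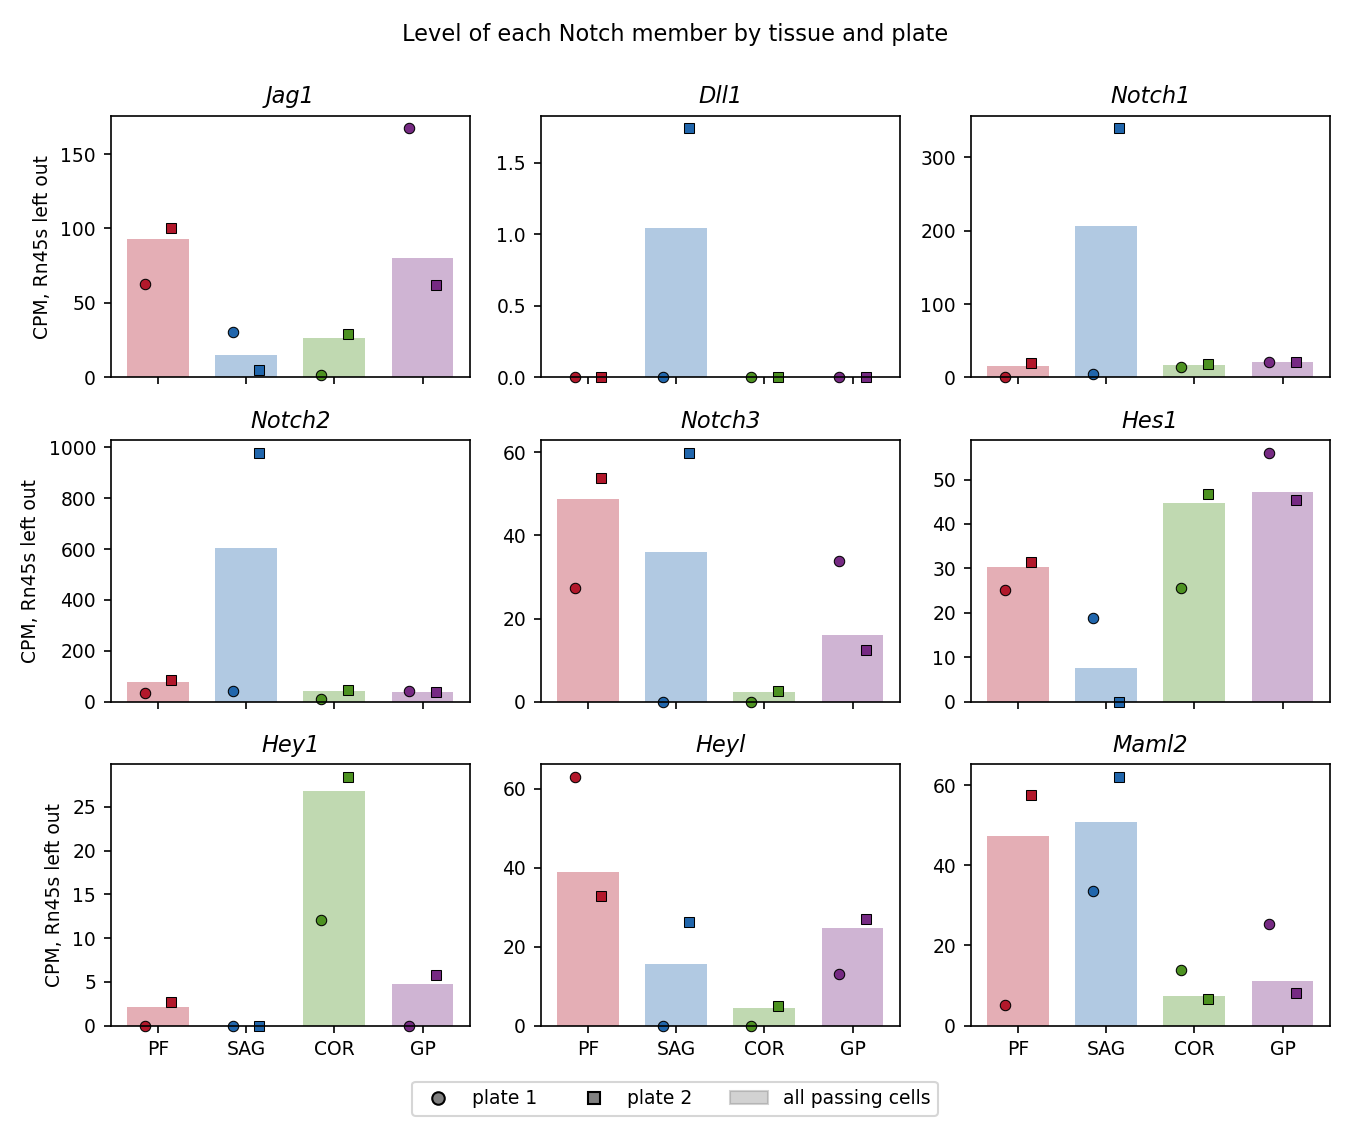
Level of each gene in CPM with Rn45s left out of totals. Bars are all passing cells of a tissue, circles are plate 1 and squares plate 2, and each panel has its own vertical scale. Jag1 stands highest in PF and GP, Hey1 in COR (26.8 CPM), and the tall SAG bars of Notch1 and Notch2 come from plate 2 (340 and 979 CPM).

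Notch2 was the most widely read receptor. Its level was 605 CPM in SAG (593 to 616), 75.1 in PF (72.1 to 78.3), 38.9 in GP (36.6 to 41.2) and 40.4 in COR (38.3 to 42.7). The plates had 40.9 and 979 CPM in SAG, 33.3 and 85.3 in PF, 39.9 and 38.7 in GP and 11.7 and 43.6 in COR, so SAG stood out on plate 2 alone. Notch2 was read in 74.3% of COR cells (62.8 to 83.8), 70.5% of GP cells (59.1 to 80.3), 70.1% of PF cells (59.4 to 79.5) and 65.1% of SAG cells (54.1 to 75.1). The share of cells therefore lay within counting error across the 4 tissues while the summed level of SAG did not. On SAG plate 2 Notch2 had 10125 reads in 31 of 56 cells, and on SAG plate 1 it had 281 reads in 25 of 30 cells.

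Notch1 showed the same split, with 4.66 CPM on SAG plate 1 and 340 on SAG plate 2. Elsewhere it stood at 1.18 and 19 CPM on the PF plates, 14.2 and 17.8 on the COR plates and 21.7 and 21 on the GP plates. COR and GP were steady between plates, and PF was not, with 1 PF cell holding 72.6% of its Notch1 reads. A single cell also held 67.4% of the Notch1 reads of COR plate 1, and without it that plate was at 4.86 CPM. Notch1 was read in 8 PF cells, 15 SAG cells, 19 COR cells (25.7%, 16.2 to 37.2) and 12 GP cells.

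Notch3, the receptor known for its role in the smooth muscle and pericytes of vessel walls, was read in few cells and at uneven levels. It had 48.7 CPM in PF, 36 in SAG, 16.1 in GP and 2.34 in COR. The plates had 27.4 and 53.8 CPM in PF, 0 and 59.97 in SAG, 33.8 and 12.3 in GP and 0 and 2.6 in COR. PF and GP plates all lay above those of COR. Notch3 was read in 10 PF cells, 4 SAG cells, all on plate 2, 4 COR cells and 7 GP cells, and 1 PF cell held 76.3% of the PF reads. The shares ran from 4.65% in SAG (1.28 to 11.5) to 11.5% in PF (5.65 to 20.1) and their intervals overlapped.

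Hes1, a repressor that answers Notch in many tissues, was the most widely read target. Its level was 47.2 CPM in GP (44.7 to 49.8), 44.6 in COR (42.3 to 47), 30.3 in PF (28.3 to 32.3) and 7.49 in SAG (6.26 to 8.91). By plate it stood at 56.1 and 45.4 CPM in GP, 25.6 and 46.7 in COR, 25.2 and 31.5 in PF and 18.8 and 0 in SAG. SAG plates lay below all others, and those of PF and COR overlapped. Hes1 was read in 24 GP cells (30.8%, 20.8 to 42.2), 29 COR cells (39.2%, 28 to 51.2), 30 PF cells (34.5%, 24.6 to 45.4) and 6 SAG cells (6.98%, 2.6 to 14.6). All 6 SAG cells were among the 30 cells of plate 1, a share of 20%.

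Hey1, a target best known in vessels and bone, was found mainly in COR. There it had 26.8 CPM (25 to 28.6), with 12 and 28.4 on the plates and reads in 9 cells (12.2%, 5.72 to 21.8). PF had 2.15 CPM in 2 cells, GP 4.81 CPM in 2 cells, and SAG 0 reads. The top COR cell held 30.3% of the COR reads, so the level of the tissue did not rest on a lone cell. Both COR plates lay above every other plate, but on COR plate 1 a single cell held 66.7% of the reads. Without it that plate was at 4.2 CPM. GP plate 2, at 5.82 CPM, had 89.8% of its reads in a single cell. With the SAG count of 0 set to a floor of 3 reads over the tissue, the summed COR level was 154-fold that floor. This fold counts reads and not cells. By cells, the exact upper bound was 4.2% in SAG and 11.6% on SAG plate 1 alone, against the COR share of 12.2%.

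Heyl, a related repressor, had 38.8 CPM in PF, 24.6 in GP, 15.7 in SAG and 4.49 in COR. Few cells carried it, with 5 in PF, 5 in GP, 1 in SAG and 2 in COR, and the top cell held 64.6%, 71%, 100% and 72.2% of the reads in that order. By plate Heyl was at 63.1 and 32.9 CPM in PF, 13.2 and 27 in GP, 0 and 26.2 in SAG and 0 and 5.0 in COR. PF plates lay above those of the other tissues, but a single cell held 94.65% of the reads of PF plate 2. Without that cell PF plate 2 was at 1.81 CPM.

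Maml2, the coactivator, had 50.7 CPM in SAG, 47.3 in PF, 11 in GP and 7.43 in COR. The PF plates were at 5.24 and 57.5 CPM, the SAG plates at 33.6 and 62.1, the COR plates at 13.9 and 6.7 and the GP plates at 25.3 and 8.03. Only SAG lay above COR and GP on both plates, and PF spanned the whole range. Maml2 was read in 10 PF, 16 SAG, 6 COR and 9 GP cells.

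**Figure D2:**
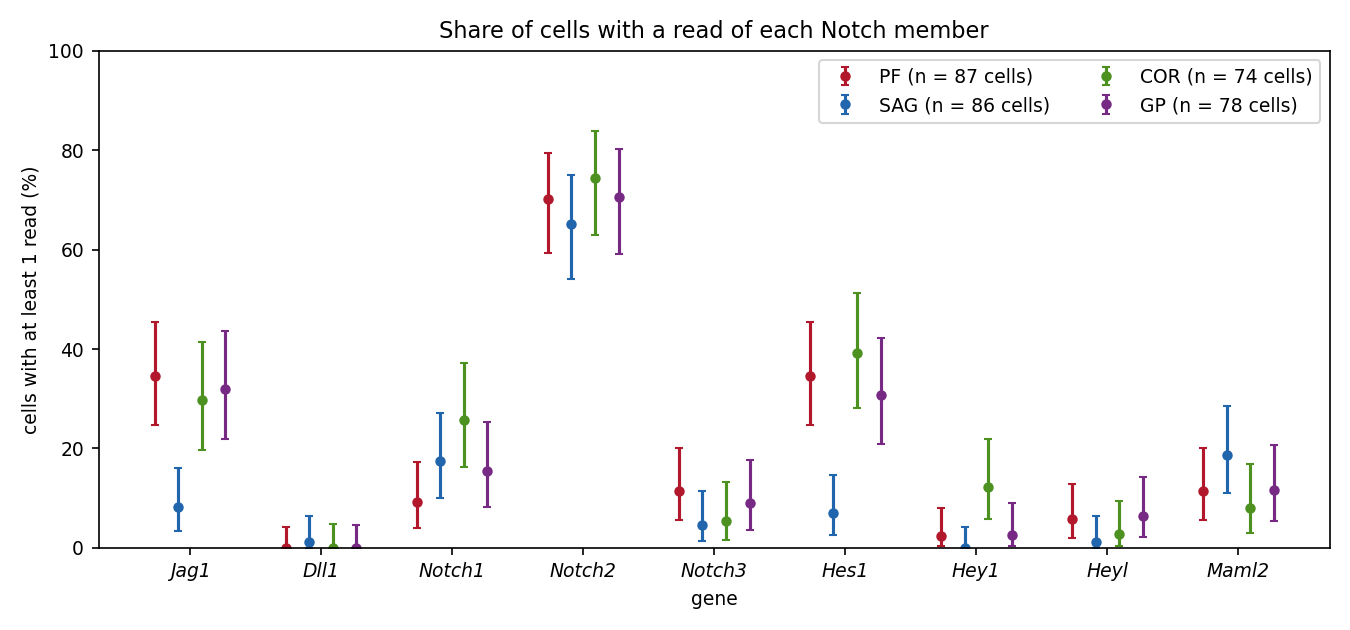
Share of cells with at least 1 read of each gene, by tissue, with exact 95% binomial intervals for counting error. Notch2 lies between 65.1% and 74.3% in all tissues, whereas the SAG shares of Jag1 (8.14%) and Hes1 (6.98%) lie below the lower bounds of the other tissues. On SAG plate 1 alone they were 16.7% and 20%.

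Put together by role, a ligand was read in 34.5% of PF, 29.7% of COR, 32.1% of GP and 9.3% of SAG cells. A receptor was read in 73.6%, 83.8%, 76.9% and 72.1%, and a target in 36.8%, 44.6%, 33.3% and 8.14%, in the same order. At least 1 of the 9 genes was read in 81.6% of PF, 89.2% of COR, 82.1% of GP and 76.7% of SAG cells, and in 90% of cells on SAG plate 1 against 69.6% on plate 2. Over both plates SAG thus stood apart in ligand and target and not in receptor. On its plate 1 alone a ligand was read in 16.7%, a receptor in 86.7% and a target in 20% of cells. No cell had more than 7 of the genes. Thinning each cell to 100000 reads, which kept 288 cells, gave close shares for Jag1, at 37.3% in GP, 34.3% in PF, 26.8% in COR and 8.75% in SAG. For Hes1 the thinned shares were 28.4%, 38.6%, 33.8% and 5.0%.

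The 9 genes were compared with each other in level only per kilobase of exon. On that scale of level, PF was led by Jag1 with 15.9 CPM per kb and Hes1 with 14.9, followed by Maml2 with 7.89, Heyl with 7.59, Notch2 with 7.15 and Notch3 with 6.05. COR was led by Hes1 with 21.9 and Hey1 with 12.2, with Jag1 at 4.48. GP was led by Hes1 with 23.2 and Jag1 with 13.8. Notch2 led SAG with 57.5, a level that plate 2 set.

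Tissues were then compared in 6 pairs on log2((CPM+1)/(CPM+1)), a scale on which weakly read genes change less than their CPM. A gene was counted where it had 10 CPM in at least 1 tissue of the pair, a log2 ratio of 1 or more in size, and the same sign in all 4 ratios of a plate of the one tissue to a plate of the other. This rule describes size and has no error rate. Over all genes tested the 3 pairs without SAG had median log2 ratios of 0.03 (PF to COR), 0.10 (PF to GP) and 0.07 (COR to GP). The SAG pairs had medians of 0.29 (PF to SAG), -0.23 (SAG to GP) and -0.29 (SAG to COR), and their ratios are to be read against these. With Rn45s counted the SAG medians were 2.20, -2.09 and -2.24. That scaling also moved the split of the genes that met the rule. In PF to SAG it went from 16.9% of all genes higher and 13.2% lower to 24.9% and 3.32%, in SAG to COR from 13.5% and 18.9% to 3.43% and 31.2%, and in SAG to GP from 13.3% and 18.3% to 4.0% and 26.4%.

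Between PF and COR, 4 of the 8 Notch genes tested met the rule, where 11.8% of all 9514 genes did. Jag1 (log2 ratio 1.79, plate ratios 1.09 to 5.31), Notch3 (3.89, 2.98 to 5.78) and Heyl (2.86, 2.5 to 6.0) were higher in PF, and Hey1 (-3.14, -4.88 to -1.83) was higher in COR. The median of the 8 was 1.33. Between COR and GP, 4 of 8 met it, against 13.4% of all genes. GP was higher for Jag1 (-1.58), Notch3 (-2.35) and Heyl (-2.22), COR was higher for Hey1 (2.26), and the median of the 8 was -0.39. Without its top cell in each tissue Heyl was at 1.27 CPM in COR and 7.2 in GP, under the 10 CPM needed. The PF to COR and COR to GP ratios share the COR cells.

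Between PF and GP, 0 of 7 Notch genes met the rule, against 16.4% of all genes. The ratios were 0.21 for Jag1, 0.93 for Notch2, 1.54 for Notch3, 2.01 for Maml2, 0.64 for Heyl, -0.42 for Notch1 and -0.63 for Hes1, with plate ratios of both signs for Jag1, Notch2, Notch3 and Maml2. The median was 0.64. Without its top cell in each tissue Notch1 met the rule, lower in PF, in PF to GP (-1.46) and in PF to COR (-1.60). Under that setting 18.7% and 14.2% of all genes did. With 1 sample per tissue this does not show that PF and GP were alike.

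Between PF and SAG, 3 of 7 genes met the rule, against 30.1% of all genes, with Jag1 (2.56), Hes1 (1.88) and Heyl (1.25) higher in PF and a median of 0.42. Between SAG and COR, 3 of 8 met it, against 32.4%, with Hes1 (-2.42) and Hey1 (-4.80) higher in COR, Maml2 (2.62) higher in SAG and a median of 2.11. Hey1 had no SAG read, and the median was 2.11 also with Hey1 at its floor. Between SAG and GP, 4 of 7 met it, against 31.6%, with Jag1 (-2.35) and Hes1 (-2.51) higher in GP, Notch2 (3.92) and Maml2 (2.10) higher in SAG and a median of 1.12. With 7 or 8 genes tested, these counts were within 2 genes of what the share of all genes would give. With Rn45s counted, the median of the Notch genes tested turned to -0.58 for SAG to GP and -0.80 for SAG to COR, so no direction is drawn for the set as a whole.

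Without SAG plate 2, when the rule rests on 2 plate ratios, the counts were 6 of 7 between SAG and GP (34% of all genes), 4 of 6 between SAG and COR (31.9%) and 3 of 7 between PF and SAG (33.3%). Jag1 stayed lower in SAG than in PF (1.58) and GP (-1.37), and Hes1 stayed lower than in COR (-1.21) and GP (-1.29) but fell short of the rule against PF (0.66). Notch2 lost its excess over GP (0.07), and Maml2 kept its excess over COR (2.04) and GP (1.52). Notch1 changed direction. With both SAG plates its ratio was 3.49 to COR and 3.23 to GP, without meeting the rule. On SAG plate 1 it had 4.66 CPM, against 17.4 in COR and 21.1 in GP, and met the rule in both pairs as lower in SAG. Notch3 and Heyl had no read on SAG plate 1. Their summed PF levels were 112-fold and 88.9-fold a floor of 3 reads there. These folds count reads, of which a single PF cell held 76.3% for Notch3 and 64.6% for Heyl. By cells, the exact upper bound on SAG plate 1 was 11.6% for both genes, which covers the PF shares of 11.5% and 5.75%. With Rn45s counted in the totals Maml2 no longer met the rule against COR (0.77) or GP (0.35), and with TMM factors Notch2 no longer met it against GP (4.08).

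**Figure D3:**
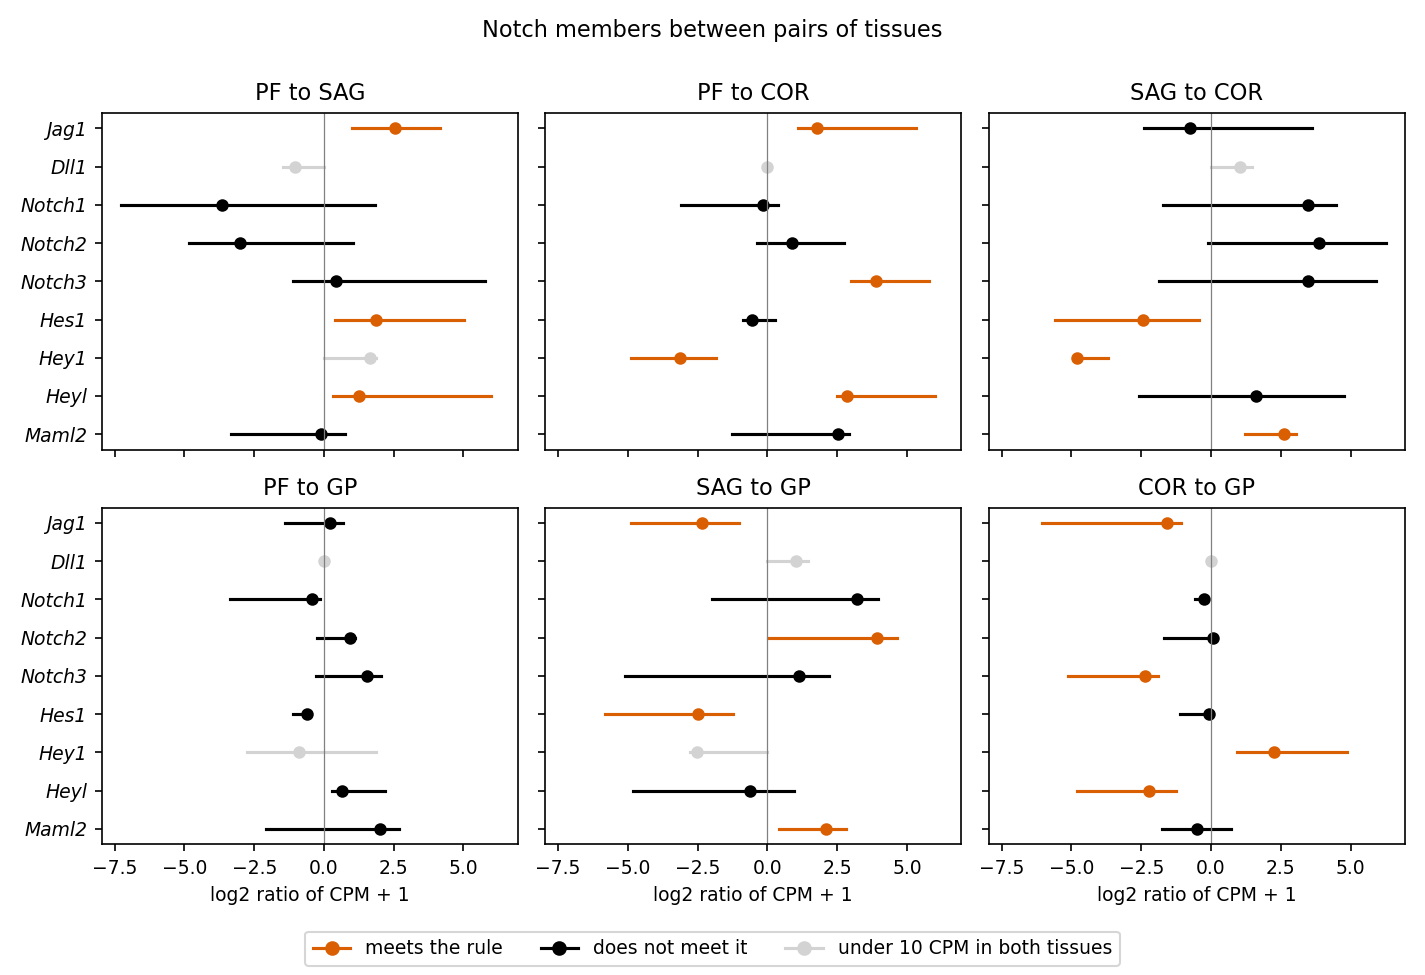
Log2 ratio of CPM + 1 for each gene in the 6 pairs of tissues, with a point for all passing cells and a line over the 4 plate ratios. Orange genes met the rule, black ones did not, and grey ones had under 10 CPM in both tissues. PF to COR and COR to GP each show 4 orange genes on opposite sides of 0, and PF to GP shows 0.

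Ligand and target were then examined in the same cells. Hes1 was read in 17 of 30 PF cells with Jag1 reads (56.7%, 37.4 to 74.5) and in 13 of 57 without (22.8%, 12.7 to 35.8). In COR the counts were 14 of 22 (63.6%, 40.7 to 82.8) and 15 of 52 (28.8%, 17.1 to 43.1), and in GP 10 of 25 (40%, 21.1 to 61.3) and 14 of 53 (26.4%, 15.3 to 40.3). In SAG they were 1 of 7 and 5 of 79, and on SAG plate 1 alone 1 of 5 and 5 of 25, both 20%. Hes1 was thus more frequent beside Jag1 in PF, COR and GP, by 33.9, 34.8 and 13.6 percentage points. The intervals did not meet in PF, met narrowly in COR and overlapped widely in GP and SAG. On PF plates 1 and 2 the shares were 45.5% against 13% and 63.2% against 29.4%, on COR plates 50% against 42.9% and 65% against 23.7%, and on GP plates 30% against 20% and 46.7% against 27.9%.

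Depth differed little on COR plate 2, where Jag1 cells had a median of 506992 reads and the others 507505. In PF the medians were 384187 and 263953 reads. After thinning to 100000 reads Hes1 was read in 54.2% of PF cells with Jag1 and 30.4% without, in 57.9% and 25% of COR cells, and in 32% and 26.2% of GP cells. Of 4 Notch genes wide enough to test (Notch1, Notch2, Hes1 and Maml2), Hes1 alone was read more often with Jag1 in all 4 tissues, against 21.1% of 7707 genes. In PF, COR and GP only, 3 of the 4 were (all but Maml2), against 26.9%. With SAG plate 2 left out, 0 of the 4 were higher in all 4 tissues, against 15.7%, since Hes1 shares were equal on SAG plate 1. With 10 reads needed for a gene to count as read in a cell, Maml2 was the 1 of the 4 higher in all tissues, in place of Hes1. Read the other way, Jag1 and Notch2 of 4 genes were read more often in cells with Hes1 in all tissues, against 23.2%. With SAG plate 2 left out 0 of the 4 were, against 14.3%, and with 10 reads needed Notch1 was the 1 of the 4.

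**Figure D4:**
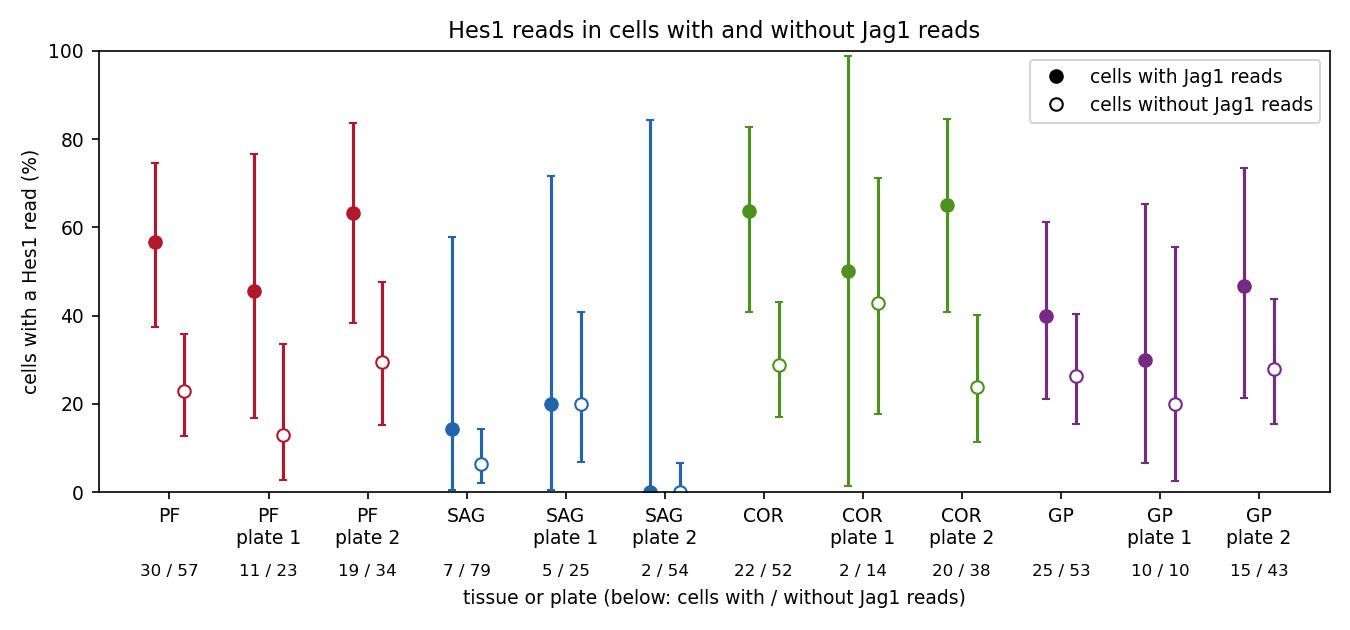
Share of cells with a Hes1 read among cells with (filled) and without (open) Jag1 reads, by tissue and plate, with exact 95% binomial intervals. Numbers under the axis give the cells in each class. The filled point lies above the open one in PF, COR and GP and on each of their plates.

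Notch3 was read in 8 of 30 PF cells with Jag1 (26.7%, 12.3 to 45.9) and 2 of 57 without (3.51%, 0.428 to 12.1), in 3 of 22 (13.6%, 2.91 to 34.9) and 1 of 52 COR cells (1.92%, 0.0487 to 10.3), and in 4 of 25 (16%, 4.54 to 36.1) and 3 of 53 GP cells (5.66%, 1.18 to 15.7). In SAG the order was the opposite, with 0 of 7 and 4 of 79. The intervals overlapped outside PF, and Notch3 was read in too few cells for the comparison with all genes. Heyl showed 4 of 30 against 1 of 57 cells in PF, 2 of 22 against 0 of 52 in COR and 3 of 25 against 2 of 53 in GP. Single cells carried several of the genes together. A cell of GP plate 1 held 423 Jag1, 143 Notch3, 52 Hes1 and 51 Heyl reads, and a cell of COR plate 2 held 260 Hey1, 130 Jag1, 104 Heyl and 48 Notch2 reads. On SAG plate 2 the top Notch2 cell, with 1391 reads, had none of the other 8 genes.

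A target was read in 28 of 64 PF cells with a receptor and 4 of 23 without, in 30 of 62 and 3 of 12 COR cells, in 24 of 60 and 2 of 18 GP cells, and in 7 of 62 and 0 of 24 SAG cells, of which SAG plate 1 had 6 of 26 and 0 of 4. Cells with a receptor were also deeper, with a median of 438463 against 125408.5 reads in GP and 387810 against 165148 in PF, and the part of depth in these shares was not tested. Ligand, receptor and target were all read in 17 PF cells (19.5%), 14 COR cells (18.9%), 10 GP cells (12.8%) and 1 SAG cell (1.16%), which was 1 of the 30 cells of SAG plate 1 (3.33%).

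Markers of mural cells were higher in cells with Notch3 reads in PF and GP and lower in them in COR and SAG. The list of 10 pericyte and smooth muscle genes summed to 2150 CPM in GP, 1191 in PF, 703 in COR and 454 in SAG. It had 10 genes read in GP, 9 in PF, 7 in COR and 5 in SAG, with Rgs5 and Myh11 at 0 in SAG and COR. In cells with Notch3 reads the list stood at 6625 CPM in PF, against 565 in the other PF cells, and at 19610 against 396 in GP. In COR it was lower in them, at 172 against 739, and in SAG it was at 0 against 474. All 4 SAG cells with Notch3 were on plate 2, where 3 of the 10 list genes had a read. A single cell held 74.9% of the list reads of the GP cells with Notch3, and a single cell 69.3% in PF. Most of the 50969 list reads of these GP cells were of 1 gene of the list, Acta2, with 32215 and 8157 reads in single cells. Without the cell with most list reads the list was at 5744 CPM in GP and 2319 in PF, still above the cells without Notch3. The part of such cells in the Notch3 and Jag1 results was not tested. For Jag1 the list was at 2599 against 335 CPM in PF, 4916 against 585 in GP, 295 against 476 in SAG and 406 against 843 in COR. Without the cell with most list reads the cells with Jag1 were at 1391 CPM in PF and 1250 in GP. Of the endothelial list, Pecam1, Tek, Tie1, Emcn and Cldn5 had no read in any tissue, and its 10 genes summed to at most 35.5 CPM.

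Acta2, smooth muscle actin, was singled out from that list after its values were seen. It was read in 30 PF, 29 COR, 15 GP and 1 SAG cell. The cells with Acta2 reads held 87.9% of the Notch3 reads of PF and 69.8% of those of GP but 0% of those of COR. The PF share rests largely on 1 cell, which held 1126 of the 1475 Notch3 reads and 4350 Acta2 reads. By cells, Notch3 was read in 5 of 30 PF cells with Acta2 and 5 of 57 without. The counts were 5 of 15 and 2 of 63 in GP, and 0 of 29 and 4 of 45 in COR. Cells with Acta2 reads held 58.3% of Jag1 reads in PF, 35.9% in GP and 10% in COR. Without them, Jag1 stood at 55.3 CPM in PF, 66.5 in GP, 37.2 in COR and 15 in SAG, and Notch3 at 8.40, 6.27, 3.70 and 36.1. The counts that met the rule were then 2 for PF to COR (12.6% of all genes), 0 for COR to GP (14.7%), 2 for PF to GP (18.4%), 2 for SAG to COR (27%), 3 for SAG to GP (31.5%) and 0 for PF to SAG (27.1%). Jag1 and Notch3 no longer met it in PF to COR (0.56 and 0.999, the latter with under 10 CPM in both tissues), whereas Heyl did (2.32) and Hes1 was then higher in COR (-1.78). Hes1 was still read more often with Jag1, in 46.7% against 23.8% of PF cells, 66.7% against 29.6% of COR cells and 36.4% against 29.3% of GP cells, although on PF plate 1 it was read in 0 of 3 cells with Jag1 and 2 of 17 without. Whether cells with Acta2 reads were mural cells was not tested.

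**Figure D5:**
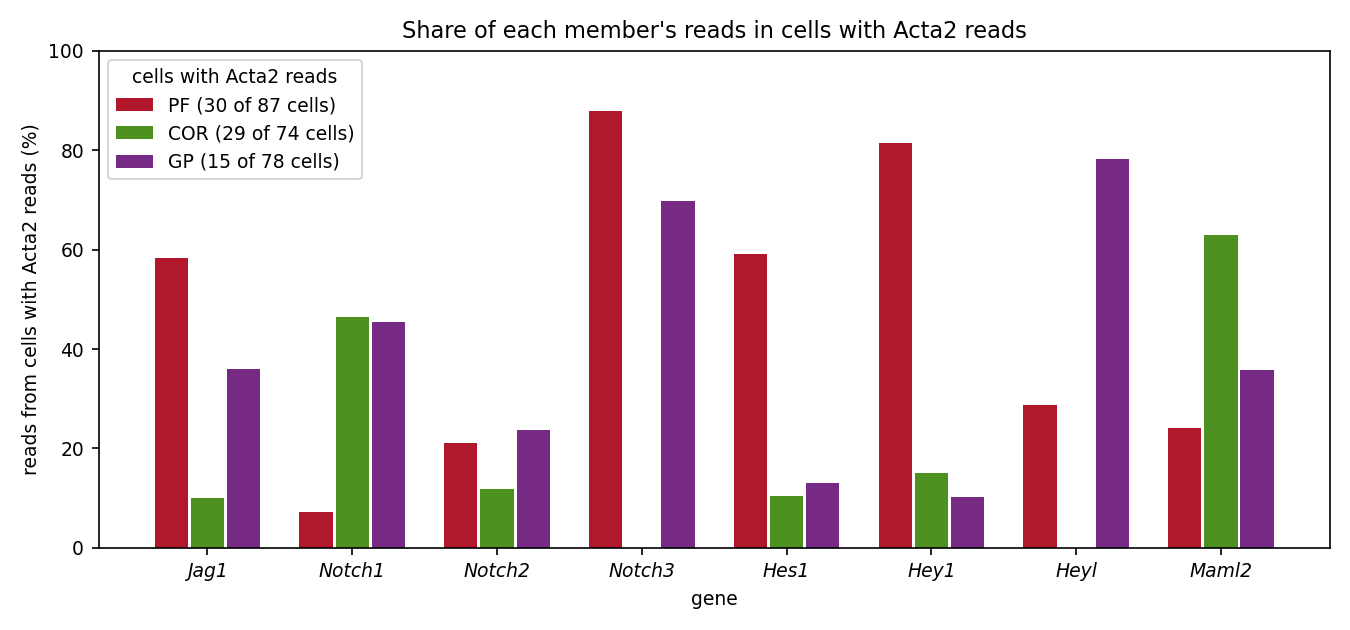
Share of the summed reads of each gene that came from cells with Acta2 reads, in PF, COR and GP. Dll1 had no read there and is not shown. Notch3 reaches 87.9% in PF and 69.8% in GP but 0% in COR, and Jag1 falls from 58.3% in PF to 10% in COR. In PF a single cell with Acta2 reads held 76.3% of the Notch3 reads, and 5 of the 10 cells with Notch3 had Acta2 reads.

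The other 57 pathway genes met the rule in 3 of 40 tested for PF to COR (1 higher, 2 lower), against 11.8% of all genes, in 6 of 40 for COR to GP (2 and 4), against 13.4%, and in 8 of 40 for PF to GP (4 and 4), against 16.4%. They met it in 12 of 41 for PF to SAG (4 and 8), against 30.1%, in 19 of 42 for SAG to COR (9 and 10), against 32.4%, and in 14 of 41 for SAG to GP (6 and 8), against 31.6%. Without SAG plate 2 the last 3 counts were 11 of 39 (33.3% of all genes), 10 of 40 (31.9%) and 9 of 38 (34%). Their median log2 ratios lay between -0.36 and 0.21. Among further ligands, Dlk1, a noncanonical ligand, was highest in GP with 23.1 CPM, above PF (4.16, log2 ratio -2.22), COR (0.81, -3.73) and SAG (10.3, -1.09). The last ratio was -0.54 without SAG plate 2 and no longer met the rule. Dll4 had 12.2 CPM in SAG, all on plate 2, and no read in the other tissues, and Dll3 had no read at all. Notch4 stayed at 2.06 CPM or less.

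Of the 9 further targets, Bhlhe40 met the rule in 4 pairs, with 183 CPM in SAG and 175 in GP over 53 in COR and 31.7 in PF. Both SAG plates (199 and 172 CPM) and both GP plates (177 and 174) lay above all PF and COR plates. Sox9, the master factor of cartilage, stood at 2120 CPM in SAG, 41.9 in PF, 29.6 in GP and 13.3 in COR, with 124 CPM on SAG plate 1 and 3448 on plate 2, beside a chondrocyte list at 12710 CPM in SAG, 5105 in GP, 382 in PF and 310 in COR. Without SAG plate 2 the Sox9 ratios were -1.54 for PF to SAG, 2.02 for SAG to GP and 3.13 for SAG to COR. Myc was also higher in SAG, with 90.2 and 222 CPM on its plates, than in PF (-1.53), COR (1.66) and GP (1.52). Without SAG plate 2 it met the rule in none of these pairs (-0.62, 0.75 and 0.62).

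Among genes that cut or process the receptor, the protease gene Adam17 was higher in GP (121 CPM) than in PF (24.5, -2.25). Of the gamma-secretase genes, Aph1b (-4.05) and Psenen (-1.56) were higher in COR in SAG to COR, and without SAG plate 2 Aph1b still was (-3.84) and Psenen fell short of the rule (-0.59). No gene of sugar transfer met the rule except Rfng in SAG to COR (-1.02, and -0.23 without SAG plate 2), and Mfng had no read. Of the ubiquitin ligases, Dtx4 was higher in COR with 14.7 CPM than in PF (-3.79), SAG (-2.55, and -1.59 without SAG plate 2) and GP (1.98). Mib1 was lower in PF with 2.61 CPM than in COR (12.6, -1.92) and SAG (40.8, -3.54), where the plates had 6.26 and 63.8 CPM. Rbpj, the DNA-binding partner of all Notch receptors, had 45.3 CPM in GP, 28.5 in PF, 20.4 in COR and 14.4 in SAG, and GP met the rule over SAG (-1.59) and COR (-1.11), but not over SAG without SAG plate 2 (-0.65). Fbxw7, which marks the cut receptor for breakdown, was lower in GP (2.35 CPM) than in PF (21.4, 2.74) and COR (18.8, 2.56). Ep300, a histone acetyltransferase of the Notch complex, stood at 637 CPM in SAG (27.6 and 1042 on the plates) and 16.2 to 24.7 elsewhere, and met the rule over COR (5.21) and GP (4.92). It met the rule over neither without SAG plate 2 (0.73 and 0.44). Maml3, a relative of Maml2, was higher in PF with 16.9 CPM than in COR (2.81), GP (1.53) and SAG (1.15, and 2.43 without SAG plate 2).

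Likeness of pattern was measured over 269 cells outside SAG plate 2, as Pearson's r of log2(CPM+1) with each plate's mean taken off, among 5375 genes read in at least 20% of these cells. The points share libraries and depth, and r is a description. Jag1 was most like Col4a1 (r = 0.331), Eln (0.310) and Ndn (0.309), Hes1 was most like Atp1b1 (0.293), Rbms1 (0.284) and Chordc1 (0.276), and Notch2 was most like Igfbp4 (0.481), Mdk (0.448) and Cpxm1 (0.392). Jag1 and Hes1 had r = 0.249, which ranked Hes1 22 for Jag1 and Jag1 15 for Hes1, where the median gene had r = 0.040 for Jag1 and 0.047 for Hes1. All these correlations were weak to moderate.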

How the data were processed

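Single cells of 4 tissues were sorted into plates, copied by the Picelli (SMART-seq2) method and sequenced in full length. The authors deposited unnormalized counts of reads for each gene of each cell in 8 tables, 1 per plate. The submitters' processing notes name STAR 2.5.3a, HTSeq, Seurat 2.3.0, R 3.4.4 and mm9. The gene annotation and strand setting were not given in the sources used here, so reads of overlapping or antisense genes cannot be told apart. 0 columns were left without a cell.

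Counts of the 325 passing cells were summed per tissue and plate and divided by totals without Rn45s, in Python 3.11.15 with pandas 2.3.3 and SciPy 1.17.1. The pseudocount was 1. Depth ran from 17212041 to 32037308 reads per tissue without Rn45s. Marks of doublets were not sought, since wells held sorted single cells. Gene lengths and mm9 positions came from GENCODE on the same build. Named genes were the 9 members, the other pathway genes with no read in any tissue, and some but not all of those that met the rule. Genes that only led their list in CPM are not printed, since lengths differ. The rule was run on simulated Poisson counts with known changes, drawn from a common profile with no spread between cells or plates. That run cannot show how the rule behaves where single cells or plates carry a gene. The thinning was checked on the counts of PF and COR cells. TMM factors came from edgeR 4.0.16 in R 4.3.3. The members and lists were chosen with earlier results of these data known. Alternatives were 2 scalings, cell and level filters, a pseudocount of 5, 10 reads for a cell to count, the mean over cells, thinning, and leaving out plates, top cells or doubtful cells. Leaving out cells with Acta2 reads, leaving out the cell with most reads of a marker list or, per plate, of a gene, and using PF, COR and GP only, were chosen after seeing the data.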

Additional observations from a re-analysis of the deposited data

Results flagged for a closer look

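Members were also read in the 35 cells left out by the filter, which no comparison used, above the 3 reads that a count of 0 allows. Notch2 had 704 reads in 5 of these cells, Notch3 had 10 reads in 1 cell and Jag1 had 5 reads in 2 cells.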

How the results depend on the processing

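Of 702 member ratios under the alternatives, 570 moved by less than 1 SD of the plate ratios and 131 moved by more. The other 1 had met the rule and reversed in sign. Reversals were counted only for ratios that met the rule with the main settings. Sign changes of the other ratios lie within the 570 and 131, such as those of Notch1 without SAG plate 2. Of 288 shares of cells with a member read, 44 moved. Counting Rn45s, TMM factors, no cell filter, thinning, a pseudocount of 5 and leaving out the cell with 2 tissues in its labels moved none of the counts or shares each applied to by more than 1.5 times or their counting interval.

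Without SAG plate 2 the other pathway genes gave 10 calls for SAG to COR (main 19; 31.9% of all genes) and 9 for SAG to GP (main 14; 34%), the members highest in SAG fell from 4 (Dll1, Notch1, Notch2 and Maml2) to 0, and 90% of SAG cells had a member read (main 76.7%). With 1 plate per tissue left, a call needs 1 plate ratio and counts rise by construction. Without plate 1, members gave 8 calls for SAG to COR and 3 for PF to GP, and other pathway genes gave 30 for PF to SAG, 13 for PF to COR, 35 for SAG to COR, 19 for PF to GP and 34 for SAG to GP, against 79.9%, 28.2%, 79.7%, 32.4% and 79.8% of all genes in the order of the latter 5 pairs. Without plate 2, members gave 7 for PF to COR, 5 for SAG to COR and 5 for PF to GP, other pathway genes gave 11 for PF to COR, 26 for PF to GP and 17 for COR to GP, against 42.7%, 49.7% and 45.9% of all genes (45% for SAG to COR), 2 members were highest in SAG, and 90% of SAG cells had a member read. With 1500 genes and 50000 reads per cell, which removed all cells of SAG plate 2, the other pathway genes gave 11 for SAG to COR (32.2% of all genes), 1 member was highest in SAG, and 92.9% of SAG and 92.6% of GP cells had a member read. The mean CPM of single cells gave 2 members for PF to GP (20.9% of all genes), leaving out each gene's top cell gave 1 (18.7%), and no filter on low values gave 6 other pathway genes for PF to COR (11.4%). At least 10 reads to count a cell gave shares of 70.3% in COR, 65.4% in GP, 65.1% in SAG and 57.5% in PF. The cause of these moves was not tested beyond their construction.

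Without cells with Acta2 reads, an alternative chosen after seeing the data, members gave 0 calls for PF to SAG (27.1% of all genes), 2 for PF to COR (12.6%), 2 for PF to GP (18.4%) and 0 for COR to GP (14.7%), other pathway genes gave 8 for PF to COR and 11 for SAG to COR (27%), and the Heyl ratio of COR to GP went from -2.22 to 0.0364. The cause was not tested. No paired analysis was possible because plate numbers do not pair tissues, each tissue is 1 sample and no test was run. Thinning moved the share of cells read most for Notch2, from 69.8% to 62.2% of all cells, and took Hey1 and Heyl from 4% to 4.17%.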
